A study of Homo sapiens and Mus musculus with 17 samples.

Results

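A set of 10 genes of N-glycoprotein quality control in the endoplasmic reticulum (ER) was followed through all 17 RNA-seq libraries of a study of SEL1L–HRD1 ER-associated degradation (ERAD). They are the lectin chaperone genes CANX and CALR, the folding sensor UGGT1, the glucosidase II subunits GANAB and PRKCSH, the glucose-binding lectin MLEC, the mannosidase MAN1B1 and the 3 EDEM genes EDEM1, EDEM2 and EDEM3. The members were taken by gene symbol, and each matched 1 row among the 62714 genes of the human table and 1 row among the 55491 genes of the mouse table. All 10 had an FPKM (fragments scaled to the length of the transcript and to the mapped fragments of the library) of at least 1 in enough libraries to be tested in both tables.

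HEK293T, a human embryonic kidney line, was represented by 3 libraries each of WT, HRD1 KO and SEL1L KO cells. The knockout lines were made with CRISPR/Cas9, and whether each is 1 clone is not given in the sources used here. Brown adipose tissue (BAT) came from mice of the B6 strain aged 12 weeks, with 3 WT libraries, 3 from Sel1l flox/flox; Ucp1-Cre mice (Sel1L KO) and 2 from Hrd1 flox/flox; Ucp1-Cre mice (Hrd1 KO). The Ucp1 promoter drives Cre in brown adipocytes, so that other cells of the tissue keep the gene, and the labels give no allele for the WT mice.

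In the calnexin cycle, glucosidases trim a new N-glycan to a single glucose, which the membrane lectin calnexin (CANX) and its soluble relative calreticulin (CALR) bind while the protein folds. Glucosidase II removes that glucose, and UGGT1 puts it back on proteins that are still misfolded, which sends them through another round. ER mannosidase I (MAN1B1) and the EDEM proteins shorten the mannose branches of proteins that stay misfolded, and the trimmed glycan is read by the ERAD lectins that hand them to SEL1L and HRD1. SEL1L serves as a scaffold of the ERAD complex and supports the stability of the ubiquitin ligase HRD1 (gene SYVN1). Many ER chaperone genes are targets of the unfolded protein response through the ER stress response element (ERSE).

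The human promoter windows of the members were searched for that element, and those of CANX and CALR are shown because it set these 2 lectin chaperone genes apart from the other members. The windows (RefSeq, GRCh38.p14) ran over 300 bases around each start site. The ERSE was searched as CCAAT and CCACG with 9 free bases between them, ERSE-II as ATTGG and CCACG with 1 free base between them, and the unfolded protein response element (UPRE) as TGACGTGG, each on both strands. Both forms of the ERSE hold the shorter letters CCAAT, on either strand, and CCACG, each of which is common. CANX and CALR held a full ERSE match, a match found in 27 of 35116 promoter windows (0.0769%). The other 8 members held none, and no member held the letters of ERSE-II (0.0541% of windows) or of the UPRE (0.729%). CCACG was found in 38.1% of windows and CCAAT in 34.6%. The CANX match fell in the windows of 3 annotated start sites, 151 to 133 bases before the start in 1 of them, and is shown on chr5:179698773-179698801 (+ strand of GRCh38.p14) with 5 bases on each side. The CALR match lay on the reverse strand, 225 to 207 bases before the start, and is shown within chr19:12938359-12938480 (+ strand). Capitals mark the fixed letters of the ERSE, read in reverse complement in CALR.
CANX: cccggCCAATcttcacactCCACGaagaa
CALR: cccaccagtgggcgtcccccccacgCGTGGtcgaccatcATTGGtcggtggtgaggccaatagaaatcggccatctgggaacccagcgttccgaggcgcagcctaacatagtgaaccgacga
A match of letters is a description of these windows, and no binding was measured. Promoters of the mouse genes were not analysed here.

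The targeted genes were read first. SEL1L mRNA in HEK293T had FPKM values of 1.82, 3.36 and 2.59 in the SEL1L KO libraries against 4.39, 8.74 and 12.85 in WT. SYVN1 did not go down with the HRD1 KO label, where it had 22.5, 18.5 and 19.8, all above the 16.7 to 17.0 of WT. In BAT, Syvn1 was likewise above WT (5.20 to 5.65) in both Hrd1 KO libraries, at 14.1 and 13.8. The rise was not particular to that label. SYVN1 had 28.9, 28.4 and 25.9 in SEL1L KO of HEK293T, and Syvn1 had 118, 16.6 and 9.96 in Sel1L KO of BAT. Sel1l values were 25.2, 8.17 and 8.38 under the Sel1L KO label against 9.10 to 12.9 in WT. In Hrd1 KO of BAT, Sel1l had 57.6 and 65.2, and in HRD1 KO of HEK293T, SEL1L had 3.79, 19.3 and 24.1. A value for the whole gene does not show which exons the reads came from, so these groups are given by their labels, and HRD1 KO, Hrd1 KO and Sel1L KO stand below for the libraries labelled so. A row for Cre had 11.02 to 310 FPKM in the 5 knockout libraries of BAT and 0.15 to 0.18 in WT. Sel1L KO replicate 1 stood apart, with a Cre FPKM of 310 against 24.4 and 11.02 in the other Sel1L KO libraries. BAT changes of Calr, Canx, Mlec and Edem1 against WT, and counts of called members, are given with and without that library. The 10 brown adipocyte markers were all detected in BAT, and the 7 markers of the HEK293T line were all detected.

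Changes below are log2 fold changes on the log2(FPKM + 0.1) scale with standard errors (SE) from limma, fitted over 15796 human and 12473 mouse genes with Benjamini-Hochberg adjustment. A gene was called where its adjusted p was under 0.05 in HEK293T or under 0.01 in BAT. In BAT, the median change of all genes against WT was 0.42 for Hrd1 KO and 0.09 for Sel1L KO. It moved to -0.02 and 0.00 after median-ratio scaling, so scaled values stand beside the BAT changes of the members. In HEK293T the median gene lay at -0.05 and -0.06. The share of summed FPKM from mitochondrial transcripts in BAT ranged in WT from 44.3 to 45.5%. That of Hrd1 KO ranged from 34.4 to 41.3% and that of Sel1L KO from 41.7 to 45.0%.

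CALR mRNA was higher in every knockout library than in every WT library, in HEK293T and in BAT. In HEK293T it rose 2.79-fold by the ratio of means under the HRD1 KO label, and it was the only member past the threshold there. CALR (ENSG00000179218, chr19:12938578-12944489 of GRCh38, + strand) encodes the soluble lectin chaperone of the ER lumen, which also binds calcium. Its FPKM was 347, 501 and 434 in WT replicates 1, 2 and 3. The libraries labelled HRD1 KO had 1291, 1241 and 1045, and the SEL1L KO libraries had 791, 905 and 912. The 3 groups did not overlap, with WT lowest and HRD1 KO highest. The group means were 427 ± 77.5 (SD, n = 3) in WT, 1192 ± 130.1 (n = 3) in HRD1 KO and 869 ± 68.0 (n = 3) in SEL1L KO. On the log2 scale CALR changed by 1.49 (SE 0.18, adjusted p = 0.0252) in HRD1 KO and by 1.04 (SE 0.18, adjusted p = 0.253) in SEL1L KO. With the replicate number as a block in limma, the adjusted p became 0.00421 in HRD1 KO and 0.0473 in SEL1L KO. Within replicate numbers 1, 2 and 3, CALR was above WT by 1.90, 1.31 and 1.27 in HRD1 KO and by 1.19, 0.85 and 1.07 in SEL1L KO. When each library was left out in turn, in fits without the block, the change in HRD1 KO stayed between 1.35 and 1.61. Its adjusted p ran from 0.0260 to 0.127, and the call was lost in 8 of 9 such fits, all but the one without HRD1 KO replicate 3.

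Calr in BAT (ENSMUSG00000003814, chr8:84841850-84846934 of GRCm38, - strand) had FPKM values of 177, 155 and 163 in WT. Hrd1 KO libraries had 609 and 648, and Sel1L KO libraries 1055, 479 and 464. No knockout library overlapped with WT, and Sel1L KO replicate 1 was the highest of all. The log2 fold change was 1.93 (SE 0.33, adjusted p = 0.0225) in Hrd1 KO and 1.90 (SE 0.29, adjusted p = 0.0334) in Sel1L KO, neither past the threshold of 0.01. Without Sel1L KO replicate 1, both passed, at 1.93 (adjusted p = 0.000128) and 1.52 (adjusted p = 0.000846). After scaling, the changes were 1.48 (adjusted p = 0.114) and 1.81 (adjusted p = 0.0869) with all libraries. Scaled and without that library, they were 1.48 (adjusted p = 0.00321) and 1.34 (adjusted p = 0.00937).

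CANX, the membrane-bound lectin chaperone, was 2.67-fold and 2.81-fold higher by the ratio of means in the BAT libraries labelled Hrd1 KO and Sel1L KO, with little spread among WT libraries. Neither BAT change passed the threshold with all libraries. In HEK293T, CANX values spread widely and neither knockout gave a call. Human CANX (ENSG00000127022) lies on chr5:179678628-179731641 (+ strand). WT libraries had an FPKM of 244, 347 and 279. Those of HRD1 KO had 289.9, 598 and 948, and those of SEL1L KO had 289, 408 and 616. Replicate 1 of each knockout fell within the WT range, whereas replicates 2 and 3 lay above it. The log2 fold changes were 0.93 (SE 0.41) and 0.54 (SE 0.41), with an adjusted p of 1 in both. Blocking on the replicate number lowered the SE to 0.24 in both, so part of the spread lay between replicate numbers. CANX was still not called in limma with the block (adjusted p = 0.46 in HRD1 KO and 0.88 in SEL1L KO). Within replicate numbers, CANX was above WT in 3 of 3 numbers in each knockout, by 0.25, 0.79 and 1.77 in HRD1 KO and by 0.25, 0.24 and 1.14 in SEL1L KO.

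Mouse Canx (ENSMUSG00000020368, chr11:50293961-50325673, - strand) had FPKM values of 98.0, 85.7 and 102 in WT. Hrd1 KO libraries had 264 and 245, and Sel1L KO libraries 358, 223 and 223. No knockout library overlapped WT. The log2 fold changes were 1.42 (SE 0.22, adjusted p = 0.0172) and 1.46 (SE 0.20, adjusted p = 0.0235), neither past the threshold of 0.01. After scaling, they were 0.97 (adjusted p = 0.129) and 1.36 (adjusted p = 0.0778). Over the mean of both knockouts, Canx rose by 1.44 (SE 0.18, adjusted p = 0.00949), past the threshold. Scaling lowered that to 1.16 (adjusted p = 0.0468). Without Sel1L KO replicate 1, the changes were 1.42 (adjusted p = 0.000702) and 1.23 (adjusted p = 0.00410). Scaled and without that library, Hrd1 KO passed (0.97, adjusted p = 0.00834) and Sel1L KO did not (1.06, adjusted p = 0.0140).

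**Figure D1:**
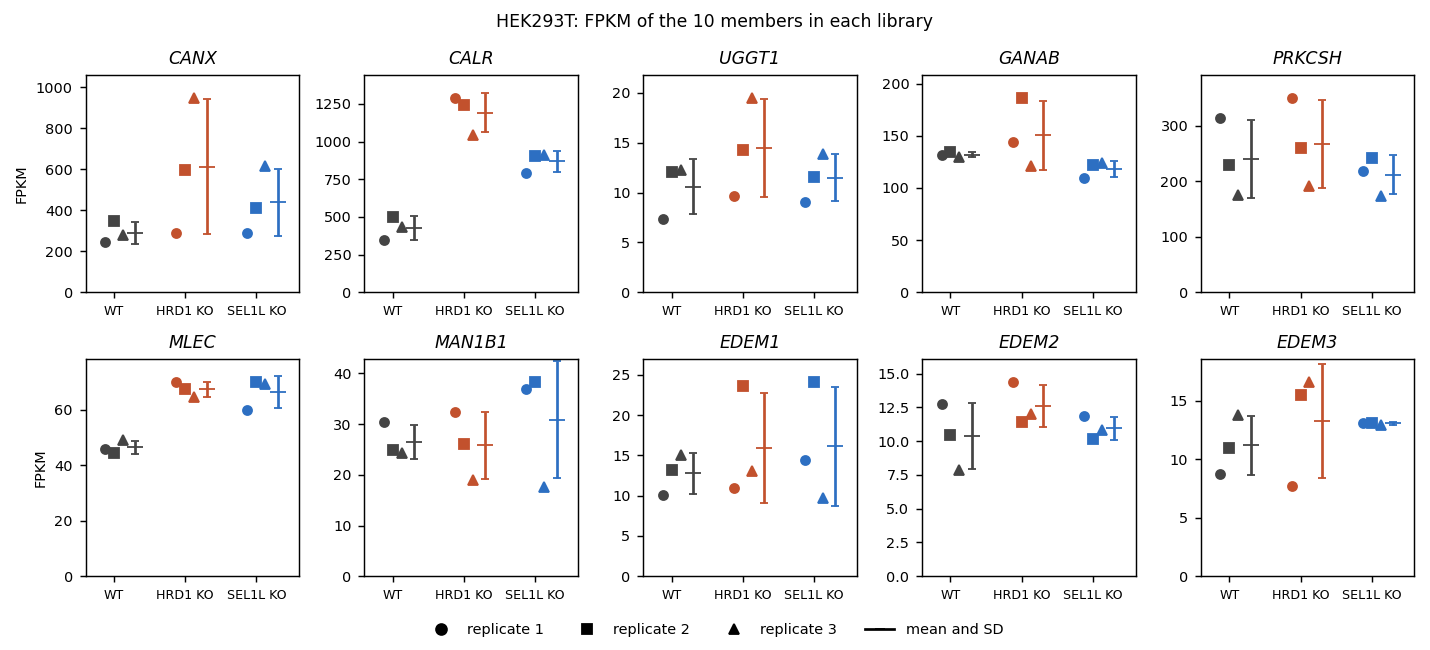
FPKM (linear axis from 0) of the 10 members in each HEK293T library by group, with a symbol for each replicate number and the mean with SD (n = 3) beside each group. CALR is the gene whose 3 groups do not overlap, and MLEC is above WT in all 6 knockout libraries, whereas the other members overlap with WT in at least 1 knockout.

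UGGT1, the glucosyltransferase that recognises misfolded glycoproteins, did not pass the threshold in either system. In HEK293T (ENSG00000136731, chr2:128091200-128195677, + strand) its FPKM was 7.39, 12.1 and 12.2 for WT, 9.67, 14.3 and 19.5 for HRD1 KO and 9.06, 11.6 and 13.8 in SEL1L KO, and the groups overlapped. The changes were 0.43 (SE 0.31) and 0.14 (SE 0.31). Blocking on the replicate number lowered the SE to 0.16 in both, without a call in limma (adjusted p = 0.77 in HRD1 KO and 0.95 in SEL1L KO). In BAT, Uggt1 (ENSMUSG00000037470, chr1:36140027-36244720, - strand) had 4.68, 6.30 and 7.77 in WT, 10.2 and 9.52 in Hrd1 KO and 15.5, 8.12 and 8.12 in Sel1L KO. All 5 knockout libraries were above WT, as they were for 15% of all tested genes. The changes were 0.68 (SE 0.33, adjusted p = 0.228) and 0.71 (SE 0.30, adjusted p = 0.268), and 0.23 and 0.62 after scaling. The change in Sel1L KO was 0.40 (adjusted p = 0.306) with replicate 1 of that group left out.

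Glucosidase II is a dimer of a catalytic subunit, encoded by GANAB, and a subunit encoded by PRKCSH that keeps it in the ER. Neither passed the threshold in any comparison. GANAB in HEK293T (ENSG00000089597, chr11:62624826-62646726, - strand) stood at 132, 135 and 129.8 FPKM for WT, 144, 186 and 121 for HRD1 KO and 109, 122 and 124 in SEL1L KO. All 3 SEL1L KO libraries lay below WT, as 3.72% of all genes did, with a change of -0.16 (SE 0.18, adjusted p = 1). Those of HRD1 KO overlapped with WT (0.16, SE 0.18). PRKCSH (ENSG00000130175, chr19:11435284-11450968, + strand) had 314, 229 and 176 in WT, 350.2, 260.5 and 192 in HRD1 KO and 218, 243 and 174 in SEL1L KO, with changes of 0.16 (SE 0.27) and -0.15 (SE 0.27). In HRD1 KO, PRKCSH was above WT in 3 of 3 replicate numbers, by 0.16, 0.18 and 0.13. In SEL1L KO it was above WT in 1 of 3 (-0.53, 0.08 and -0.01).

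In BAT, both Hrd1 KO libraries exceeded every WT library for each subunit, by about the shift of the median gene. Ganab (ENSMUSG00000071650, chr19:8898071-8916672, + strand) had 24.3, 24.1 and 26.8 in WT, 36.1 and 36.0 in Hrd1 KO and 24.8, 31.0 and 29.1 in Sel1L KO. Prkcsh (ENSMUSG00000003402, chr9:22002806-22014222, + strand) had 22.4, 18.5 and 24.5 in WT, 32.9 and 34.7 in Hrd1 KO and 29.0, 26.8 and 22.4 in Sel1L KO. In Hrd1 KO the changes of Ganab and Prkcsh were 0.53 (SE 0.16) and 0.64 (SE 0.19), and scaling reduced them to 0.08 and 0.19. In Sel1L KO they were 0.17 (SE 0.14) and 0.26 (SE 0.17), or 0.07 and 0.16 after scaling.

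MLEC encodes malectin, an ER lectin that binds N-glycans with glucose on them. In HEK293T it was above WT in all 6 knockout libraries by about the same amount. MLEC (ENSG00000110917, chr12:120687149-120701859, + strand) showed 45.6, 44.5 and 49.0 FPKM in WT. HRD1 KO libraries showed 69.9, 67.5 and 64.5, and SEL1L KO libraries 59.7, 69.9 and 69.2. No knockout library overlapped with WT, and 0.589% of all tested genes likewise lay above WT in all 6. The changes were 0.54 (SE 0.15) and 0.51 (SE 0.15), each with an adjusted p of 1, and unadjusted p-values of 0.00564 and 0.00743 in limma. Within replicate numbers MLEC was above WT in 3 of 3 in each knockout.

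In BAT, Mlec (ENSMUSG00000048578, chr5:115142981-115158179, - strand) had 49.0, 35.5 and 43.3 in WT. Hrd1 KO libraries had 113 and 119, and Sel1L KO libraries 54.9, 79.2 and 67.5. The 3 groups did not overlap, with Hrd1 KO highest, and here Sel1L KO replicate 1 was the lowest library of its group. The change in Hrd1 KO was 1.46 (SE 0.20, adjusted p = 0.0134), and 1.01 after scaling (adjusted p = 0.0574). In Sel1L KO it was 0.65 (SE 0.18, adjusted p = 0.124), and 0.55 after scaling. With replicate 1 of Sel1L KO left out, the change in Hrd1 KO passed the threshold (adjusted p = 0.00187), whereas that in Sel1L KO did not (0.79, adjusted p = 0.0388). Scaled and without that library, Mlec in Hrd1 KO did not pass either (1.01, adjusted p = 0.0177).

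**Figure D2:**
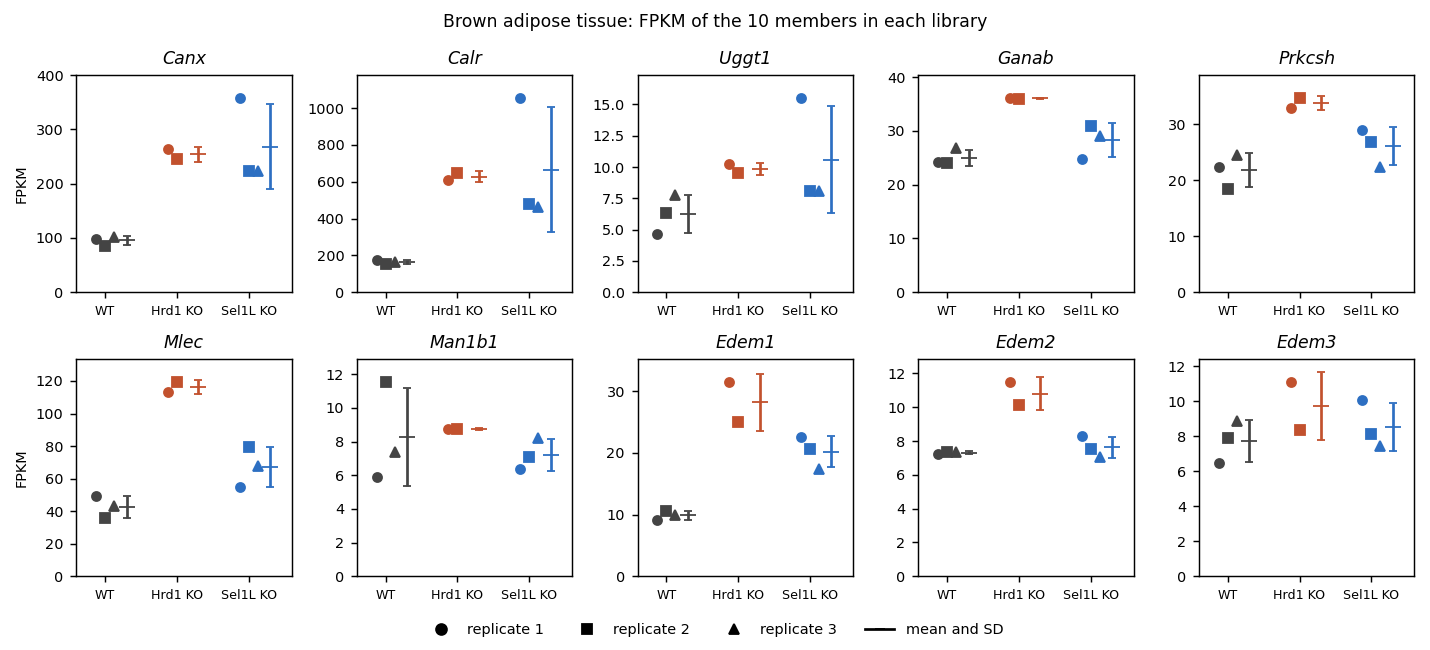
FPKM (linear axis from 0) of the 10 members in each BAT library by group, with a symbol for each replicate number and the mean with SD beside each group (n = 3 for WT and Sel1L KO, n = 2 for Hrd1 KO). Calr, Canx, Mlec, Edem1 and Uggt1 are above WT in all 5 knockout libraries, as are 15% of all tested genes, and Sel1L KO replicate 1 is the highest library for Calr (1055), Canx (358) and Uggt1 (15.5).

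MAN1B1 encodes ER mannosidase I, which takes the first mannose from the glycan of misfolded proteins, and its values did not separate any knockout from WT. In HEK293T (ENSG00000177239, chr9:137086857-137109189, + strand) they were 30.4, 24.9 and 24.2 for WT, 32.3, 26.02 and 19.0 for HRD1 KO and 36.8, 38.3 and 17.5 in SEL1L KO. Replicate 3 was the lowest of each group. The changes were -0.07 (SE 0.32) and 0.14 (SE 0.32). In BAT, Man1b1 (ENSMUSG00000036646, chr2:25332338-25352212, + strand) had 5.89, 11.6 and 7.37 in WT, 8.78 and 8.73 in Hrd1 KO and 6.35, 7.07 and 8.23 in Sel1L KO. The changes were 0.14 (SE 0.29, adjusted p = 0.768) and -0.15 (SE 0.26, adjusted p = 0.828), which became -0.31 and -0.24 after scaling.

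The EDEM genes encode mannosidase-like proteins that direct misfolded glycoproteins to ERAD. Of the 3, Edem1 changed most in BAT, and it rose 2.37-fold over both knockouts by the ratio of means, whereas Edem2 and Edem3 stayed near WT in Sel1L KO. Edem1 (ENSMUSG00000030104, chr6:108828641-108859356, + strand) stood at 9.18, 10.6 and 9.91 FPKM in WT. Hrd1 KO libraries had 31.5 and 25.0, and Sel1L KO libraries 22.5, 20.6 and 17.5. The 3 groups did not overlap, and Hrd1 KO was highest. The change was 1.50 (SE 0.19, adjusted p = 0.0105) in Hrd1 KO and 1.02 (SE 0.17, adjusted p = 0.0414) in Sel1L KO, which did not pass the threshold. Over the mean of both knockouts it was 1.26 (SE 0.15, adjusted p = 0.00889), which did. Scaling lowered these to 1.05 (adjusted p = 0.0552), 0.92 (adjusted p = 0.0869) and 0.98 (adjusted p = 0.0332). When Sel1L KO replicate 1 was left out, Hrd1 KO passed (1.50, adjusted p = 0.00178) and Sel1L KO did not (0.94, adjusted p = 0.0243). With scaling as well, Hrd1 KO passed (1.05, adjusted p = 0.00778) and Sel1L KO did not (0.77, adjusted p = 0.0393).

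Edem2 in BAT (ENSMUSG00000038312, chr2:155701677-155729475, - strand) had 7.21, 7.33 and 7.37 in WT, 11.5 and 10.1 in Hrd1 KO and 8.28, 7.55 and 7.07 in Sel1L KO. Its change was 0.56 (SE 0.18, adjusted p = 0.1001) in Hrd1 KO, 0.11 after scaling, and 0.06 (SE 0.16) in Sel1L KO, -0.036 after scaling. Edem3 (ENSMUSG00000043019, chr1:151755371-151822051, + strand) had 6.46, 7.89 and 8.85 in WT, 11.1 and 8.35 in Hrd1 KO and 10.1, 8.15 and 7.42 in Sel1L KO, and its groups overlapped. The changes were 0.32 (SE 0.24) and 0.14 (SE 0.21), which became -0.12 and 0.046 after scaling.

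In HEK293T no EDEM gene separated a knockout from WT. EDEM1 (ENSG00000134109, chr3:5187646-5219958, + strand) had 10.1, 13.2 and 15.1 for WT, 11.01, 23.6 and 13.1 for HRD1 KO and 14.5, 24.1 and 9.73 in SEL1L KO, so that replicate 2 alone of each knockout lay above WT. The changes were 0.25 in both (SE 0.38). EDEM2 (ENSG00000088298, chr20:35115364-35147336, - strand) spanned 7.88 to 12.7 for WT, 11.4 to 14.4 for HRD1 KO and 10.2 to 11.8 for SEL1L KO, with changes of 0.30 and 0.10 (SE 0.23). EDEM3 (ENSG00000116406, chr1:184690237-184754907, - strand) spanned 8.78 to 13.8 for WT, 7.73 to 16.6 for HRD1 KO and 12.97 to 13.1 for SEL1L KO, with changes of 0.19 and 0.24 (SE 0.31). The EDEM2 row also carries the identifier of the readthrough transcript MMP24-AS1-EDEM2, so reads of either are not separated. Exons of CALR, EDEM1, MLEC, CANX, PRKCSH and mouse Man1b1 overlap with those of another gene, mostly on the opposite strand, and the human partners had at most 4.03 FPKM in any library. Whether the authors' counting used strand is not given in the sources used here.

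**Figure D3:**
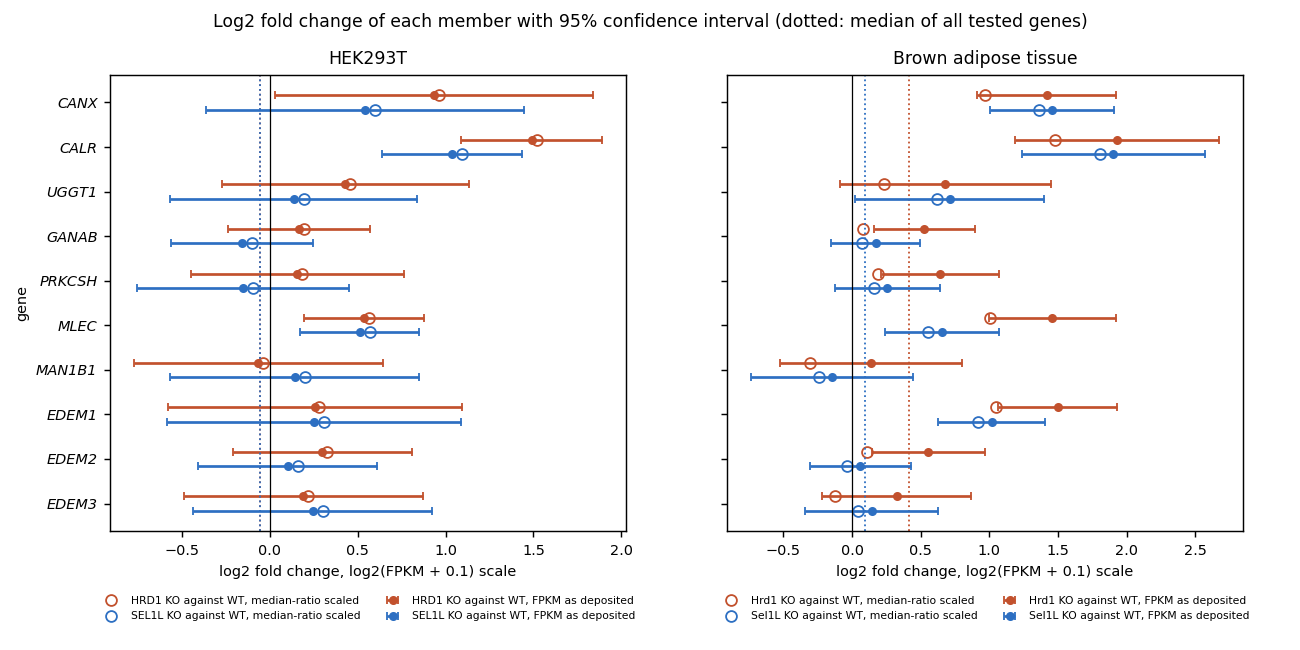
Log2 fold change of each member against WT with its 95% confidence interval from limma (filled points) and after median-ratio scaling (open circles), for HEK293T and BAT. Dotted lines mark the median of all tested genes for each knockout, at 0.42 for Hrd1 KO in BAT. CALR, EDEM1, MLEC and CANX have the largest changes for Hrd1 KO in BAT, and in HEK293T CALR lies farthest to the right.

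Across the members, 1 of 10 (CALR) was called higher in the HEK293T libraries labelled HRD1 KO, where 0.057% of all tested genes were called higher, and 0 of 10 in SEL1L KO, where 0.0317% were. At an unadjusted p under 0.05 in limma, the counts were 3 in HRD1 KO (0.943% of genes higher) and 2 in SEL1L KO (0.715%). With the replicate block, CALR alone was called in each knockout, beside 0.152% and 0.076% of genes called higher. Against the mean of both knockouts, 1 of 10 (CALR, 1.26, adjusted p = 0.0203) was called, with 0.0633% of all genes called higher. CALR and MLEC did not overlap with WT in HRD1 KO, where 1.96% of genes lay fully above WT. The same pair lay fully above WT in SEL1L KO, where 2.41% of genes did, and GANAB lay fully below WT, as 3.72% did. The median change of the members was 0.28 in HRD1 KO and 0.19 in SEL1L KO, beside -0.05 and -0.06 over all genes.

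In BAT, 0 of 10 members were called at the adjusted p of 0.01 in either knockout by limma, where 0.289% of genes were called higher in Hrd1 KO and 0.0882% in Sel1L KO. At an unadjusted p under 0.05, the counts were 7 and 5, beside 25.4% and 12.7% of genes higher. Over the mean of both knockouts, 2 of 10 (Canx and Edem1) were called, with 0.321% of genes called higher. At an adjusted p of 0.05, Calr, Canx, Edem1 and Mlec passed in Hrd1 KO (4.38% of genes higher), and Calr, Canx and Edem1 in Sel1L KO (0.689%). Without Sel1L KO replicate 1, 4 members passed 0.01 in Hrd1 KO, where 5.72% of genes were called higher, and 2 in Sel1L KO, where 0.393% were. With scaling as well, these counts were 3 (0.818% of genes called higher) and 1 (0.184%). Of the members, 8 lay fully above WT in Hrd1 KO, beside 51.1% of all genes, and 5 in Sel1L KO, beside 17.7%. The median change of the members was 0.66 in Hrd1 KO beside 0.42 over all genes, and 0.45 in Sel1L KO beside 0.09. After scaling, 8 of the 10 changes were positive in each knockout, against 10 and 9 before it.

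Bulk tissue cannot tell a change in the number of cells of a type from a change in the RNA per cell. Markers of brown adipocytes and of other cell types moved with the knockouts in BAT, and every marker was detected in at least 1 library of each group. The 10 brown adipocyte markers had a lower sum in all 5 knockout libraries than in every WT library. The sum was 17979 to 23490 for Hrd1 KO, 19426 to 23936 for Sel1L KO and 24036 to 26095 for WT. Single markers differed from the sum. In Sel1L KO replicate 1, Ucp1 (3453), Dio2 (286) and Ppargc1a (387) lay above every WT library (at most 2709, 41.6 and 10.4). In the other knockout libraries, Ucp1 (1138 to 1587) and Dio2 (4.69 to 13.2) lay below WT, and Ppargc1a ran from 4.13 to 14.4. The summed FPKM of the 8 macrophage markers ran from 40.0 to 52.6 for WT, 84.6 to 88.3 for Hrd1 KO and 91.6 to 178 for Sel1L KO. The 6 fibroblast or preadipocyte markers summed to 77.1 to 110.1, 156 to 191 and 162 to 181, and the 6 endothelial markers to 83.0 to 109, 137 to 179 and 152 to 222. The 5 lymphocyte markers summed to at most 3.48 in any library. The 6 skeletal muscle markers reached 340 in Hrd1 KO replicate 1 and 69.6 in Sel1L KO replicate 1, against at most 13.2 elsewhere. Their part in the changes of the members was not tested. In HEK293T, the 5 markers of types foreign to the line summed to at most 0.62.

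The knockouts were also compared with each other. In HEK293T, CALR was 0.45 higher in HRD1 KO (SE 0.18, 95% interval 0.05 to 0.85), with an adjusted p of 1, and no member was called. CALR was the only member at an unadjusted p under 0.05, beside 1.18% of genes that were higher in HRD1 KO. In BAT, Mlec differed most, by 0.81 (SE 0.20, 95% interval 0.34 to 1.27, adjusted p = 0.175), or 0.45 after scaling (adjusted p = 0.480). Edem2 and Edem1 followed, at 0.50 (95% interval 0.09 to 0.91, adjusted p = 0.245) and 0.48 (95% interval 0.04 to 0.92, adjusted p = 0.271), or 0.15 (adjusted p = 0.777) and 0.13 (adjusted p = 0.813) after scaling. The median of all genes between the knockouts was 0.30 before scaling and -0.05 after it. With all libraries, Calr differed by 0.03 (95% interval -0.72 to 0.77) and Canx by -0.04 (-0.55 to 0.47). Differences in either direction are thus possible for the 2 chaperones in that fit. After scaling, the differences of Calr and Canx were -0.33 (95% interval -1.23 to 0.57) and -0.39 (-1.03 to 0.24). Without Sel1L KO replicate 1, Calr was 0.41 higher in Hrd1 KO (95% interval 0.14 to 0.69, adjusted p = 0.133 in limma). Canx was then 0.19 higher (-0.11 to 0.48), beside a median gene of 0.25. Scaled and without that library, they were 0.13 (-0.24 to 0.51) and -0.09 (-0.42 to 0.24). No member was called in BAT by limma, where 0.00802% of genes were called higher in Hrd1 KO. With all libraries, 3 members had an unadjusted p under 0.05, beside 15.5% of genes higher. Without Sel1L KO replicate 1, 5 members did (Calr, Edem1, Edem2, Mlec and Prkcsh), beside 18.8% of genes higher. For 6 members (Edem1, Edem2, Ganab, Man1b1, Mlec and Prkcsh), both Hrd1 KO libraries lay above all of Sel1L KO, beside 32.5% of all genes.

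**Figure D4:**
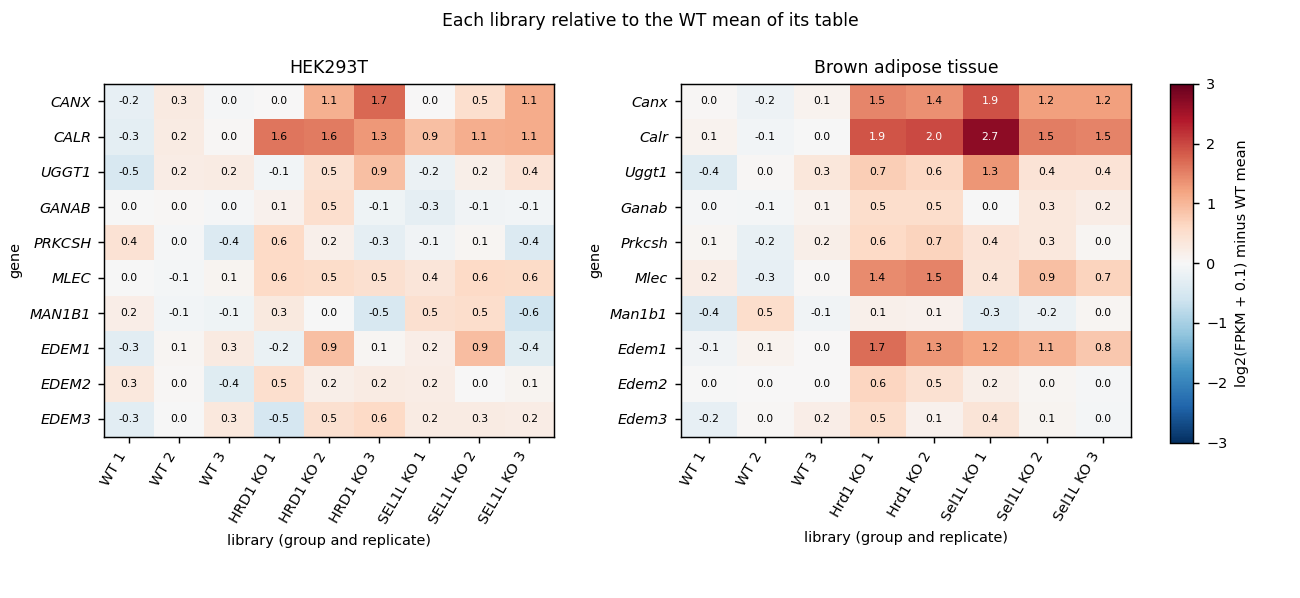
Each square is the log2(FPKM + 0.1) of a member in a library minus the mean of the WT libraries of the same table, with red above and blue below WT. Calr reaches 2.7 in Sel1L KO replicate 1 of BAT, whereas Mlec is 0.4 in that library and 1.4 and 1.5 for Hrd1 KO replicates.

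Levels of different members were compared per transcript length, as FPKM gives them. In HEK293T WT, CALR had the highest level (427 ± 77.5, SD, n = 3), followed by CANX (289.6 ± 52.4) and PRKCSH (239.6 ± 69.8), whose ranges overlapped. GANAB (132 ± 2.45), MLEC (46.4 ± 2.35) and MAN1B1 (26.5 ± 3.38) came next, each apart from its neighbours. EDEM1, EDEM3, UGGT1 and EDEM2 had means of 10.4 to 12.8, and neighbours in that order overlapped. In BAT WT, Calr (165 ± 10.8), Canx (95.3 ± 8.65) and Mlec (42.6 ± 6.79) were apart from each other. Ganab (25.0 ± 1.51) and Prkcsh (21.8 ± 3.06) overlapped. Edem1, Man1b1, Edem3, Edem2 and Uggt1 had means of 6.25 to 9.89 with overlapping neighbours. Calr and Canx kept the 2 top places in every group of both tables, whereas Uggt1 was last in BAT WT and Man1b1 was last in both BAT knockouts.

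Beyond the members, 24 genes of glycoprotein folding, trimming and export were counted as the rest of the pathway. They include the disulfide isomerase PDIA3 that works with the lectin chaperones, the ERAD lectins and the cargo receptors of ER export. In HEK293T, 21 were tested, and 0 passed in either direction in HRD1 KO or SEL1L KO by limma, with a median change of 0.23 and 0.05. With the replicate block 2 passed in HRD1 KO, PDIA3 and PPIB, beside 0.152% of all genes called higher. PDIA3 was highest in both, at 1.10 (SE 0.17, adjusted p = 0.0861) and 0.96 (SE 0.17, adjusted p = 0.253), and it rose over the mean of both knockouts (1.03, adjusted p = 0.0485). NGLY1, the cytosolic enzyme that strips N-glycans, was lowest in HRD1 KO at -0.54 (SE 0.20, adjusted p = 1), and FBXO2, a sugar-binding ubiquitin ligase subunit, in SEL1L KO at -0.24 (SE 0.56, adjusted p = 1).

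In BAT, 20 of the 24 were tested. Txndc11, a thioredoxin-domain protein of the ER, rose in Hrd1 KO by 1.74 (SE 0.21, adjusted p = 0.00797) and was the only one called there, with 0 lower. It was 1.29 after scaling (adjusted p = 0.0548). None was called in Sel1L KO by limma, where Txndc11 was 1.26 (SE 0.18, adjusted p = 0.0318). Pdia3 had larger changes of 2.13 (SE 0.38, adjusted p = 0.0261) and 2.33 (SE 0.34, adjusted p = 0.0318). The lowest were Calr3, the testis relative of calreticulin, in Hrd1 KO at -0.60 (SE 0.22, adjusted p = 0.125), and the Golgi mannosidase Man1a2 in Sel1L KO at -0.42 (SE 0.23, adjusted p = 0.386). The median changes of the list, 0.54 and 0.20, lay near those of all genes, 0.42 and 0.09. Leaving out Sel1L KO replicate 1 gave 4 called higher in Hrd1 KO and 1 in Sel1L KO, beside 5.72% and 0.393% of all genes.

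A list of 15 ER stress genes was counted for comparison. In HEK293T, 4 were called higher in HRD1 KO and 2 in SEL1L KO, beside 0.057% and 0.0317% of all genes. None was called lower, and the medians were 1.33 and 1.17. The replicate block gave 8 and 7 called higher, beside 0.152% and 0.076% of all genes. In BAT, 2 were called higher in Hrd1 KO and 1 in Sel1L KO, beside 0.289% and 0.0882% of all genes. The medians were 2.57 and 2.30, or 2.12 and 2.21 after scaling. The BAT counts became 13 and 6 when Sel1L KO replicate 1 was left out, beside 5.72% and 0.393% of all genes. All 15 lay above the median gene in each of the 4 comparisons with WT. Of the 10 members, 9 and 8 did so in HEK293T and 8 and 8 in BAT. Of the rest of the pathway, 18 of 21 did so in each HEK293T knockout. In BAT, 12 of its 20 tested genes did so in Hrd1 KO and 13 in Sel1L KO.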

How the data were processed

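RNA with polyA tails from 9 HEK293T cultures and from BAT of 8 mice was sequenced as paired-end reads. The authors mapped reads with STAR 2.7.8a to GRCh38 or GRCm38 and estimated abundance with RSEM 1.3.3, per the paper's methods and the submitters' processing notes, which also name FastQC 0.11.8. Each species has a table in which the authors deposited the FPKM of every gene and library as RSEM gave it. FPKM scales each gene to its length and to the library's total, so a few abundant genes can shift all others. The authors tested estimated counts with DESeq2. FPKM cannot enter a count test, so DESeq2 was not run here. The Ensembl release is not given in the sources used here.

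Groups were taken from the sample labels. The labels do not say whether the HEK293T libraries came from separate experiments, so p-values measure the spread between these libraries. At most 3.19% of values above 0 were identical between replicates, and each library counted as 1 sample. Depth in reads is unknown. Steps in the low values put the deepest library at 1.89 times the shallowest in HEK293T and 1.75 times in BAT, and the precision of low genes is limited by it.

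Tests used limma 3.58.1 in R 4.3.3 (lmFit, contrasts.fit, eBayes with a variance trend) on log2(FPKM + 0.1), with the 3 groups of a system in a single model and 4 comparisons in each system. This scale understates changes of low genes. The tested genes (15796 and 12473) reached an FPKM of 1 in 3 or more HEK293T libraries or in 2 or more BAT libraries, with Benjamini-Hochberg adjustment. A gene was called at an adjusted p under 0.05 in HEK293T and under 0.01 in BAT. The fit was checked on simulated data. Replicates share numbers across groups. In HEK293T, deviations from group means correlated at 0.216 to 0.485 in the 9 pairs with the same number and at -0.40 to 0.03 in the 18 others, so the numbers pair the libraries, and the block is reported beside a result it alters. In BAT they did not (-0.06 to 0.08 against -0.09 to 0.06).

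Coordinates are from GENCODE v44 (GRCh38) and M21 (GRCm38), matched by gene ID, and promoter windows from RefSeq (GRCh38.p14), where all 10 members matched. The genes named are the members, SEL1L and SYVN1, the called genes and the highest and lowest gene of the pathway list in each comparison of a knockout with WT, with PPIB as called under the block and 5 genes nearest to the members in BAT. Ucp1, Dio2 and Ppargc1a are also named, from the brown adipocyte markers. Members and lists were chosen with earlier results of these data known. Alternatives were pseudocounts of 1 and 0.01, no filter, median-ratio scaling, quantile normalization, a replicate block, fits of only the 2 groups compared, other thresholds and single libraries left out. Leaving out Sel1L KO replicate 1 together with scaling was added after seeing the data. Tables were handled with pandas 2.3.3 and NumPy 2.4.6 in Python 3.11.15 and data.table (version 1.17.8) in R, and plots with matplotlib 3.10.9.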

Additional observations from a re-analysis of the deposited data

Results flagged for a closer look

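Man1b1 was the member on which the BAT knockouts moved in opposite directions from WT before scaling. Both libraries labelled Hrd1 KO (8.78 and 8.73 FPKM) lay above the WT mean of 8.27, and all 3 labelled Sel1L KO (6.35, 7.07 and 8.23) lay below it. On the log2 scale, Sel1L KO replicate 3 was 0.05 above the WT mean. The difference between the knockouts was 0.28 on the log2 scale (SE 0.29, 95% interval -0.38 to 0.95) and did not pass the threshold in limma (adjusted p = 0.615). The WT libraries themselves ran from 5.89 to 11.6 and covered all knockout values. After median-ratio scaling the difference was -0.07 (adjusted p = 0.934). Man1b1 was then below WT in Hrd1 KO (-0.31) and in Sel1L KO (-0.24). The scaled changes with opposite signs were those of Edem2 (0.11 and -0.036) and Edem3 (-0.12 and 0.046).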

How the results depend on the processing

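CALR in HEK293T HRD1 KO gave 1 called member, and 0 with no filter on low values or with only the 2 groups compared. The mean of both HEK293T knockouts also gave 0 with no filter. At an unadjusted p under 0.05, the HEK293T counts were 3 in HRD1 KO, 2 in SEL1L KO, 1 between the knockouts and 2 over both. The BAT counts were 7 in Hrd1 KO, 5 in Sel1L KO, 3 between the knockouts and 7 over both. Over both knockouts, 0.836% of all genes in HEK293T and 21.7% in BAT were higher at that threshold. At an adjusted p under 0.05 the BAT counts were 4, 3 and 4 against WT, with 3.76% of genes higher over both. Hrd1 KO against WT gave 1 with a pseudocount of 1 and 4 with only the 2 groups compared. The mean of both BAT knockouts gave 2, but 1 with a pseudocount of 0.01 and 0 with no filter, median-ratio scaling, quantile normalization, the replicate block or the block with scaling. Scaling with Sel1L KO replicate 1 left out gave 3 in Hrd1 KO, 1 in Sel1L KO and 3 over both, where 1.01% of genes were called higher.

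With the replicate block, SEL1L KO in HEK293T gave 1 called member (CALR) in place of 0, with or without scaling. All genes called in HEK293T were then 25, 12, 2 and 24 (HRD1 KO, SEL1L KO, between them and over both) in place of 9, 5, 0 and 10. The block changed no other call of a member in HEK293T. In BAT, where the numbers did not pair libraries, the block took all genes called to 5, 1, 4 and 1 from 46, 13, 5 and 45, scaling to 5, 1, 5 and 4, and quantile normalization to 18, 1, 4 and 29. No filter gave 33, 1, 14 and 22 in BAT and 8, 9, 0 and 16 in HEK293T, and a pseudocount of 1 gave 59, 9, 8 and 50 in BAT. With only the 2 groups compared, the counts were 213, 1 and 0 in BAT and 2, 4 and 0 in HEK293T. Scaled and without Sel1L KO replicate 1, the BAT counts were 165, 30, 7 and 211.

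With single libraries left out, called members ran from 0 to 1 in HEK293T HRD1 KO (0 in 8 of 9 fits) and over both HEK293T knockouts (0 in 6 of 9), from 0 to 4 in BAT Hrd1 KO, from 0 to 2 in BAT Sel1L KO and from 0 to 4 over both. In BAT the highest counts were those without Sel1L KO replicate 1, and each of the other 7 fits gave 0. Without that library, 4.38% of all genes were called higher over both BAT knockouts. In HEK293T, the change in HRD1 KO ran from -0.0014 to 0.31 for GANAB, -0.059 to 0.37 for PRKCSH, -0.24 to 0.14 for MAN1B1, -0.069 to 0.48 for EDEM1 and -0.0078 to 0.54 for EDEM3. In SEL1L KO it ran from -0.10 to 0.30 for UGGT1, -0.36 to 0.063 for PRKCSH, -0.054 to 0.51 for MAN1B1, -0.086 to 0.56 for EDEM1 and -0.081 to 0.26 for EDEM2. In BAT, Man1b1 ran from -0.075 to 0.40 in Hrd1 KO and from -0.36 to 0.12 in Sel1L KO. Between the BAT knockouts, Calr ran from -0.18 to 0.41 and Canx from -0.15 to 0.19.

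Other reversals were all in BAT, for changes within their errors. They are given in the order scaling, quantile normalization, block with scaling, and scaling without Sel1L KO replicate 1. Man1b1 in Hrd1 KO (0.14) became -0.31, -0.36, -0.31 and -0.31, and Edem3 in Hrd1 KO (0.32) became -0.12, -0.15, -0.14 and -0.12. Edem2 in Sel1L KO (0.06) became -0.036, -0.088, -0.036 and -0.17. Man1b1 between the knockouts (0.28) became -0.066, -0.076, -0.069 and -0.080. Edem3 in Sel1L KO (0.14) became -0.019 with quantile normalization and -0.15 scaled without that library. Calr between the knockouts (0.03) became -0.33 with scaling, -0.079 with the block and -0.46 with both. The cause was not tested. Depth in reads is unknown, and the number of libraries limits the precision.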

Other observations

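In BAT, the 5 tested genes outside the set that lay nearest to the mean profile of the 10 members over 8 libraries, by the root mean square distance of log2(FPKM + 0.1) centred on WT, were U2af2 (0.0523), Tcea1 (0.0755), Ift20 (0.0876), Cmip (0.0880) and Dda1 (0.0920). The mean profile of the members was 0.96 and 0.87 above WT in the libraries labelled Hrd1 KO and 0.81, 0.57 and 0.48 in those labelled Sel1L KO. This profile was not scaled, and the median change of all genes was 0.42 in Hrd1 KO and 0.09 in Sel1L KO. It averages members whose changes ran from 0.14 to 1.93 in Hrd1 KO and from -0.15 to 1.90 in Sel1L KO.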
